A study of Mus musculus with 6 samples.

Results

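The NR4A nuclear receptors (Nr4a1, Nr4a2 and Nr4a3), the salt-inducible kinases (Sik1, Sik2 and Sik3) and the transcription factor genes Crem and Per1 are followed here across cardiomyocyte (CM) nuclei that expressed GFP or an activated form of YAP. These 8 genes were taken from the 54532 genes of the count table by matching Ensembl identifiers to symbols in GENCODE M21, and all 8 were among the 13323 genes that passed the filter on low counts. Nr4a1 and Sik1 were chosen by their counts in these same libraries, which were higher with YAP6SA than with YAP5SA, and the other 6 are their family members or fellow targets of CREB signaling. The group values below therefore describe the genes and carry no test.

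Wildtype ICR mice received 1e+11 viral genomes of AAV9 under the skin at postnatal day 6 (P6), and hearts were taken at P9, 3 d later. Every virus used the cTnT promoter, which is active in CMs, to drive GFP (the control), YAP5SA or YAP6SA. YAP5SA carries serine-to-alanine changes at the sites phosphorylated by the Hippo kinase LATS, which frees YAP from Hippo inhibition, and YAP6SA carries a further serine-to-alanine change that disrupts binding to the TEAD transcription factors. CM nuclei were enriched with an antibody to PCM1, a protein of the CM nuclear envelope, and poly-A nuclear RNA was sequenced in 2 libraries per group, of which replicate 1 is batch 1 and replicate 2 is batch 2. The labels give 2 hearts per virus without stating that each library is 1 heart, so the p-values below measure only the spread between these libraries.

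The NR4A receptors are orphan nuclear receptors whose genes are induced within minutes to hours by cAMP, calcium, growth factors and stress, and whose activity follows their abundance more than any known ligand. Protein kinase A phosphorylates the transcription factor CREB, which acts with CRTC coactivators at cAMP response elements (CREs), and the SIK kinases phosphorylate CRTCs and class IIa histone deacetylases and hold them in the cytoplasm. Sik1 is itself a CREB target and so takes part in a feedback loop, Crem encodes both activators and the inducible repressor ICER, and Per1 is a light- and cAMP-responsive gene of the circadian clock.

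The upstream sequences of the NR4A genes and of the downstream Per1 start are shown because they carry the CRE core, written CGTCA or TGACG on the other strand, that CREB recognizes. RefSeq promoter windows (build GRCm38.p6) existed for 6 of the 8 genes, in 7 windows, and Sik1 and Crem had no entry. The printed stretches run up to the base before the RefSeq start, except for Nr4a3, where only the 98 bases outside the annotated exon are given. Nr4a1 and Per1 lie on the plus strand at chr15:101266596-101266845 and chr11:69099902-69100151, Nr4a3 on the plus strand at chr4:48045055-48045152 and Nr4a2 on the minus strand at chr2:57124004-57124253. Capitals mark the CRE core.
Nr4a1: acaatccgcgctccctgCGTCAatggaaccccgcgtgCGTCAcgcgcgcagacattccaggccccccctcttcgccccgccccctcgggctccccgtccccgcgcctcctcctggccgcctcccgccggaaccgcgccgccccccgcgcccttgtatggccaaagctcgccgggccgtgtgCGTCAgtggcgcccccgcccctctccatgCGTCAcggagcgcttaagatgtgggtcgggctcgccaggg
Nr4a2: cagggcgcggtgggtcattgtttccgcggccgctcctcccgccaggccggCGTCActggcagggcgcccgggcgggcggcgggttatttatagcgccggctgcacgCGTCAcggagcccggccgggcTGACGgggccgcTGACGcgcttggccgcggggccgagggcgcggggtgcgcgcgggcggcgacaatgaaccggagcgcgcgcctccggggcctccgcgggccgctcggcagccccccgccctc
Nr4a3: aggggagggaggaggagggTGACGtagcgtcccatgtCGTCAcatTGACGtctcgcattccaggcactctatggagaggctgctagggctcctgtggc
Per1: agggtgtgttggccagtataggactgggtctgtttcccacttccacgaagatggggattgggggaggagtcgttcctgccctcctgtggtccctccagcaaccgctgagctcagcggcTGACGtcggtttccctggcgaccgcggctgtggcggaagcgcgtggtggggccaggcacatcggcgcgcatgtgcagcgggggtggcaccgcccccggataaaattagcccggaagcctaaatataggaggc

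In the 250 bases before the start, Nr4a1, Nr4a2 and Nr4a3 each held 4 CRE cores. Of 32851 mouse promoter windows of that length, 17.8% held at least 1 core and 0.137% held 4 or more. The cores of Nr4a1 lay 233, 213, 69 and 40 bases before its start. Those of Nr4a2 lay at 200, 144, 123 and 111 bases and those of Nr4a3 at 231, 213, 205 and 147 bases. The core at 147 lies in the annotated Nr4a3 exon, which takes up 152 of the 250 bases. The other 3 lie in the 98 bases before that exon. The NR4A windows thus shared a feature that is rare across promoters, although the genes were grouped here partly as known CREB targets. The Sik3 window, of which 121 bases are exon of Pafah1b2, held 3 cores, and 0.688% of all windows held 3 or more. Each Per1 window held 1 and the Sik2 window held 0. The full palindromic CRE, TGACGTCA, of which the core is a part, was in 0 of the 7 windows and in 1.55% of all windows. A TEAD motif (GGAATG, or CATTCC on the other strand) was found in the Nr4a1 and Nr4a3 windows, 198 and 195 bases before the start, and in 12.6% of all windows. The NR4A response element AAAGGTCA (1.34% of all windows, both strands searched) and the CArG box bound by SRF (1.47%) matched in none of the 7. A match describes the letters in the window and not a bound site.

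Libraries held between 14552847 and 19615627 counts in genes. Levels are given as CPM (counts scaled by library size to a fixed total) with TMM-scaled library sizes, and fold changes come from a fit to all 6 libraries with batch as a term. The mouse Yap1 gene was at 130 to 139 CPM with GFP, 122 to 130 with YAP6SA and 102 to 138 with YAP5SA, and the sources used here do not state whether reads from the YAP transgenes map to it. All 5 CM markers were detected in every library, and their sum was 42491 and 57524 CPM with GFP, 39662 and 51864 with YAP6SA and 35139 and 25097 with YAP5SA. The 7 fibroblast markers summed to 846 to 1345 CPM with GFP, 969 to 1748 with YAP6SA and 896 to 1473 with YAP5SA, higher in batch 1 within each group. The 7 endothelial markers (479 to 730 CPM over all libraries) and 7 macrophage markers (55.9 to 105) were lower. The 6 mural markers summed to 458 to 534, 516 to 547 and 321 to 398 CPM with GFP, YAP6SA and YAP5SA. The largest of them was Abcc9, at 272 and 387 CPM with GFP and 216 and 156 CPM with YAP5SA. Cspg4, next in level with GFP, was at 71.1 and 59.7 CPM with GFP and 59.4 and 59.7 CPM with YAP5SA. With YAP5SA, Abcc9 and Kcnj8 lay below GFP without overlap, Rgs5 and Myh11 lay above it, and Pdgfrb and Cspg4 overlapped. The lower mural sum with YAP5SA was therefore not shared by all its markers. It rested chiefly on Abcc9, whose cell of origin these libraries do not show, so the sum is not read as a level of mural cells. No marker of these lists was at 0 in any library. The part of these levels in the results below was not tested, and fewer cells of a type cannot be told apart from less RNA per cell.

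Nr4a1 (ENSMUSG00000023034, chr15:101254269-101274795, plus strand, GRCm38), which encodes the receptor NUR77, was the most abundant of the 8 genes per kilobase and was highest with YAP6SA. Its level was 61.2 and 68.8 CPM in the GFP libraries, 264 and 222 CPM in the YAP6SA libraries and 192 and 118 CPM in the YAP5SA libraries, in batch order. All 4 YAP libraries lay above both GFP libraries, and both YAP6SA libraries lay above both YAP5SA libraries. The group means were 65.0 ± 5.31, 243 ± 29.3 and 155 ± 52.7 CPM (SD, n = 2). Relative to GFP the fitted log2 fold change was 1.89 ± 0.20 (SE) for YAP6SA, a 3.69-fold higher level. It was 1.22 ± 0.20 for YAP5SA, a 2.32-fold higher level. YAP6SA stood above YAP5SA by 0.67 ± 0.20, or 1.59-fold. The order GFP, YAP5SA, YAP6SA held in both batches, with YAP6SA 4.31- and 3.23-fold above GFP in batches 1 and 2 and YAP5SA 3.14- and 1.71-fold above. The distance between the YAP forms rested more on single libraries, with a log2 difference of 0.34 when YAP5SA replicate 2 was left out and of 1.01 when YAP5SA replicate 1 was.

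**Figure D1:**
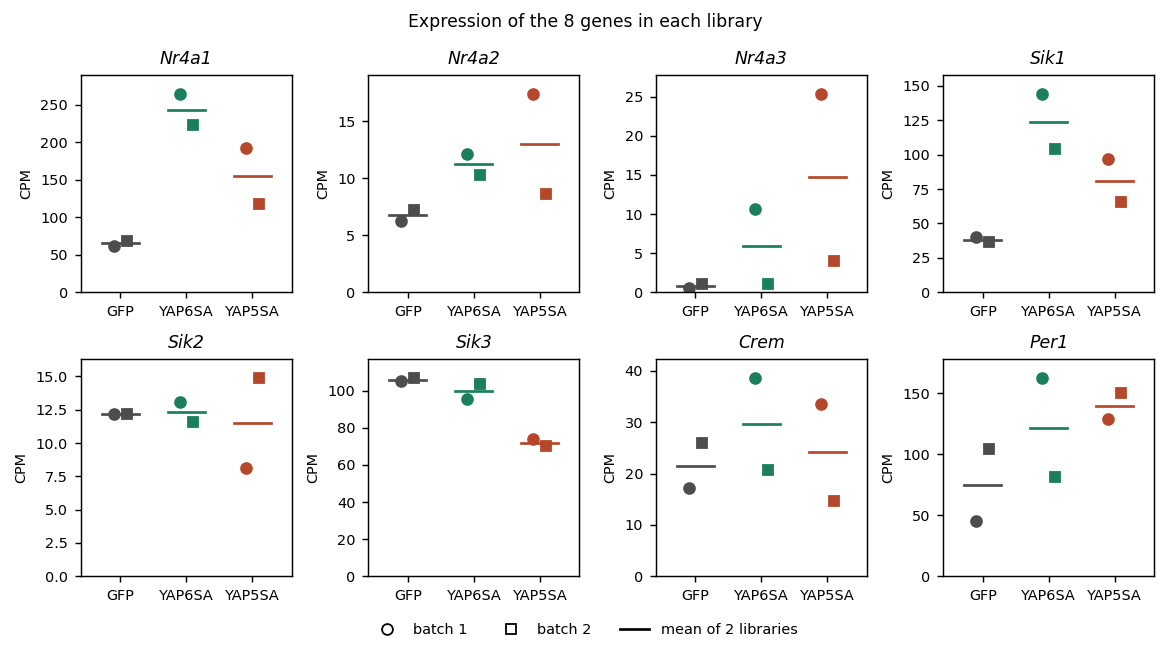
Level of each of the 8 genes (TMM-scaled CPM, linear axis from 0) in the 6 libraries, with points for libraries by batch and bars for group means of 2 libraries. Nr4a1 and Sik1 step up from GFP to YAP5SA to YAP6SA without overlap, while Nr4a3, Crem and Per1 are spread widely within the YAP6SA group.

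Nr4a2 (ENSMUSG00000026826, chr2:57106830-57124003, minus strand), which encodes NURR1, a receptor best known from dopamine neurons, was far lower. It was at 6.26 and 7.25 CPM with GFP, 12.2 and 10.2 CPM with YAP6SA and 17.4 and 8.58 CPM with YAP5SA. Both YAP groups lay above GFP without overlap, but the YAP5SA libraries straddled those with YAP6SA. The log2 fold change against GFP was 0.71 ± 0.33 for YAP6SA and 0.88 ± 0.33 for YAP5SA, and the difference between the YAP forms (YAP6SA minus YAP5SA) was -0.17 ± 0.32. That difference changed its sign between batches (-0.51 in batch 1, 0.26 in batch 2), so Nr4a2 did not share the order seen for Nr4a1.

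Nr4a3 (ENSMUSG00000028341, chr4:48045153-48086447, plus strand), which encodes NOR1, was nearly silent in control nuclei and reached its highest levels in the batch 1 YAP libraries. It had 10 and 17 raw counts with GFP, 210 and 18 with YAP6SA and 382 and 72 with YAP5SA, or 0.526 and 1.11, 10.7 and 1.09, and 25.3 and 4.04 CPM. The YAP5SA libraries were both above GFP, whereas YAP6SA replicate 2 lay among the GFP libraries. The fitted log2 fold change against GFP was 3.66 ± 0.82 for YAP5SA and 2.27 ± 0.84 for YAP6SA, with YAP6SA below YAP5SA by 1.39 on average (log2 difference -1.39 ± 0.64). Within batch 1 the YAP6SA level was 20.3-fold that of GFP, and within batch 2 it was 0.983-fold. YAP5SA was 48.1-fold and 3.64-fold GFP in batches 1 and 2. Without GFP replicate 1 the YAP5SA log2 fold change was 1.72 and the YAP6SA value 0.22, and without GFP replicate 2 they were 5.70 and 4.204. In both batches YAP5SA held more Nr4a3 than YAP6SA, opposite to Nr4a1. Nr4a3 was kept for testing through the YAP libraries, since its median log2 CPM was -0.43 with GFP, 1.74 with YAP6SA and 3.39 with YAP5SA.

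Sik1 (ENSMUSG00000024042, chr17:31844250-31855804, minus strand), the inducible kinase of its family, followed the same order as Nr4a1. It was at 40.2 and 36.4 CPM with GFP, 144 and 104 CPM with YAP6SA and 96.7 and 65.6 CPM with YAP5SA. The 3 groups did not overlap, and the lowest YAP6SA library lay just above the highest YAP5SA library. Means were 38.3 ± 2.68, 124 ± 28.1 and 81.2 ± 21.98 CPM (SD, n = 2). The log2 fold change against GFP was 1.68 ± 0.16 for YAP6SA (3.20-fold) and 1.06 ± 0.16 for YAP5SA (2.08-fold). YAP6SA exceeded YAP5SA by 0.62 ± 0.16, or 1.54-fold, with 1.49-fold in batch 1 and 1.59-fold in batch 2. Leaving out any 1 library kept this difference between 0.49 and 0.74, a narrower range than for Nr4a1.

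Sik2 (ENSMUSG00000037112, chr9:50892801-51009073, minus strand), a kinase studied chiefly in fat and melanocytes, had the same mean level with GFP and YAP6SA to within their spread. It was at 12.1 and 12.2 CPM with GFP, 13.1 and 11.6 CPM with YAP6SA and 8.15 and 14.8 CPM with YAP5SA. The YAP5SA libraries lay on either side of the other 4. The log2 fold changes were 0.02 ± 0.29 for YAP6SA and -0.11 ± 0.30 for YAP5SA against GFP. Sik2 shares 1429 exonic bases with Ppp2r1b on the opposite strand, which had 5385 counts in all against 1254 for Sik2. The libraries do not keep the strand, so reads from the shared bases cannot be told apart by it. Such reads may lie among the ambiguous reads that were set aside, in which case the Sik2 level per kilobase is understated.

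Sik3 (ENSMUSG00000034135, chr9:46012820-46224194, plus strand), the broadly expressed member, was lower with YAP5SA. It was at 105 and 107 CPM with GFP, 95.6 and 104 CPM with YAP6SA and 73.8 and 70.1 CPM with YAP5SA. Both YAP5SA libraries lay below the other 4, and YAP6SA lay just below GFP. The log2 fold change against GFP was -0.56 ± 0.14 for YAP5SA, 1.47-fold lower, and -0.09 ± 0.14 for YAP6SA. The YAP6SA level exceeded that of YAP5SA by 0.47 ± 0.14, with 0.37 in batch 1 and 0.56 in batch 2. The summed CM markers were lowest in the same YAP5SA libraries (25097 and 35139 CPM against at least 39662 CPM in the rest), and their part in the Sik3 level was not tested.

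The composition of the SIK family moved with YAP. On counts per kilobase of exon, Sik3 made up 56.6% ± 1.70 of the family's signal with GFP and Sik1 37.1% ± 1.86 (SD, n = 2). With YAP6SA the shares were 30.0% ± 5.80 for Sik3 and 66.4% ± 5.98 for Sik1. YAP5SA gave 31.5% ± 4.04 and 63.4% ± 6.89. Sik1 therefore took the leading place from Sik3 with either YAP form, and the 2 YAP forms differed by less than their spread. Nr4a1 led its family throughout, with 91.2% ± 0.426, 95.0% ± 1.33 and 89.5% ± 4.07 of the NR4A signal with GFP, YAP6SA and YAP5SA. Nr4a3 accounted for 0.660% ± 0.283, 1.25% ± 1.38 and 4.26% ± 3.41. Its share in YAP6SA replicate 2 (0.276%) lay below both GFP libraries (0.460% and 0.860%).

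**Figure D2:**
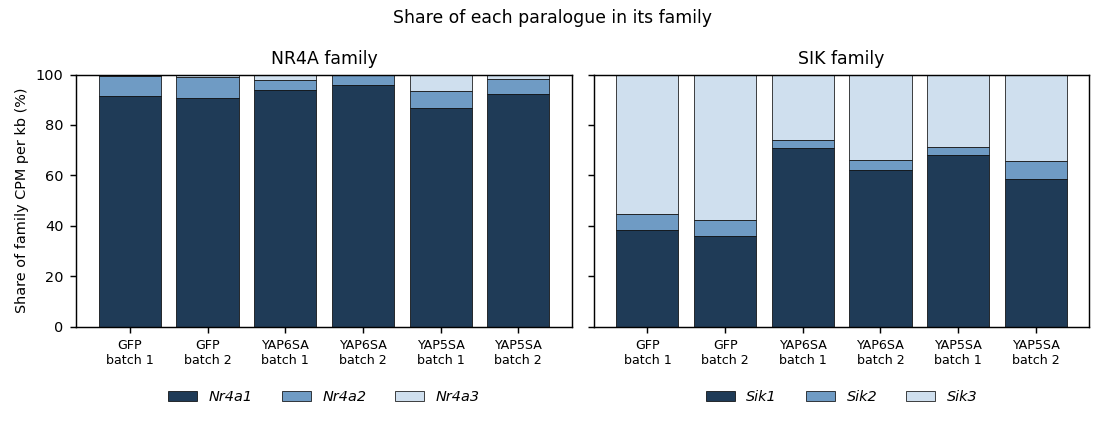
Share of each NR4A or SIK gene in its family's CPM per kilobase of exon (percent), by library. Nr4a1 makes up most of the NR4A signal in every group, and Sik1 passes Sik3 in all 4 YAP libraries.

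Crem (ENSMUSG00000063889, chr18:3266048-3337748, minus strand) separated the batches of the YAP groups rather than the groups. It was at 17.1 and 26.0 CPM with GFP, 38.6 and 20.6 CPM with YAP6SA and 33.6 and 14.7 CPM with YAP5SA. In batch 1 both YAP libraries exceeded GFP, and in batch 2 both lay below it. The log2 ratio to GFP was 1.17 and -0.33 for YAP6SA and 0.97 and -0.82 for YAP5SA in batches 1 and 2. The fitted values, 0.34 ± 0.36 and 0.03 ± 0.37, average these opposite directions. Counts are per gene, so the repressor ICER and the longer Crem transcripts were not told apart.

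Per1 (ENSMUSG00000020893, chr11:69095217-69109960, plus strand) varied most within the controls. It was at 45.2 and 104 CPM with GFP, 162 and 81.5 CPM with YAP6SA and 129 and 150 CPM with YAP5SA. Both YAP5SA libraries lay above both GFP libraries, while YAP6SA replicate 2 lay between the GFP libraries. The log2 fold change was 0.93 ± 0.38 for YAP5SA and 0.76 ± 0.39 for YAP6SA against GFP. The YAP6SA value was 1.85 within batch 1 and -0.35 within batch 2, and the fitted value was -0.13 without YAP6SA replicate 1 and 1.57 without YAP6SA replicate 2. Per1 in YAP6SA nuclei thus had no settled direction in these libraries.

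**Figure D3:**
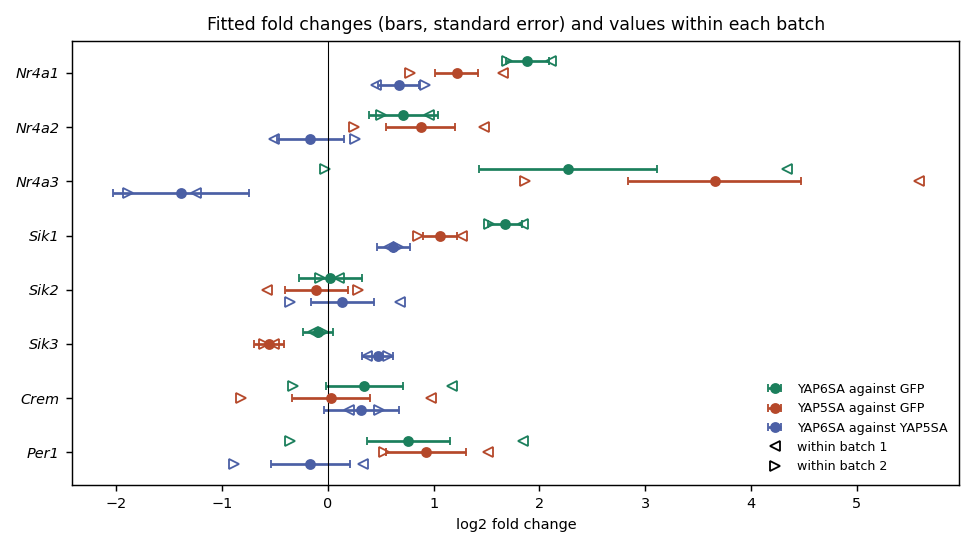
Log2 fold change of each gene for YAP6SA against GFP, YAP5SA against GFP and YAP6SA against YAP5SA, with bars of 1 SE from the 6-library fit and the ratios within batch 1 and batch 2 as open triangles. In YAP6SA against GFP the batches lie on the same side of 0 for Nr4a1, Nr4a2, Sik1 and Sik3. They lie on opposite sides for Nr4a3, Sik2, Crem and Per1, with Nr4a3 close to 0 in batch 2 and Sik2 in both.

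Ordered by CPM per kilobase in GFP nuclei, the levels were 18.5 ± 1.51 for Nr4a1, 13.3 ± 7.42 for Per1, 11.4 ± 0.114 for Sik3 and 7.46 ± 0.523 for Sik1 (SD, n = 2). Crem followed at 3.66 ± 1.06, Nr4a2 at 1.66 ± 0.173, Sik2 at 1.28 ± 0.00492 and Nr4a3 at 0.137 ± 0.0690. Per1 differed from its neighbours Nr4a1 and Sik3 by less than its own spread, and the other neighbours differed by more. Sik1, below Per1 and Sik3 with GFP, stood next to Nr4a1 with YAP6SA at 24.2 ± 5.47 beside Per1 at 21.7 ± 10.2, a difference within their spread, and Nr4a1 reached 69.2 ± 8.35.

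An adjusted p under 0.05 by edgeR's quasi-likelihood test, which the selection of the genes makes a description only, was reached in YAP6SA against GFP by Nr4a1 and Sik1 (2 of 8), with 0.0450% of all tested genes called. In YAP5SA against GFP it was reached upward by Nr4a1, Nr4a3 and Sik1 (3 of 8, with 12.8% of all genes called higher). Downward it was reached by Sik3 (1 of 8, with 9.18% called lower). Nr4a3 passed the filter on low counts through the YAP groups alone. The filter thus partly set its place in the upward count and among the non-overlapping genes below. The Sik3 call was lost without GFP replicate 1, GFP replicate 2 or YAP5SA replicate 2, and DESeq2 did not call Nr4a3. In YAP6SA against YAP5SA it was reached upward by Nr4a1 and Sik1 (2 of 8, with 5.68% called higher). The last count was 0 without YAP6SA replicate 2 and 0 without YAP5SA replicate 2, and without YAP6SA replicate 1 the sole call was Per1, lower. Both YAP6SA libraries exceeded both GFP libraries for Nr4a1, Nr4a2 and Sik1 (3 of 8), as for 17.3% of all genes. For YAP5SA over GFP there were 5 of 8 (these 3 with Nr4a3 and Per1), against 31.2%, and for YAP6SA over YAP5SA 3 of 8 (Nr4a1, Sik1 and Sik3), against 28.9%. Sik3 alone lay lower without overlap, below GFP with YAP6SA (1 of 8, against 17.0%) and with YAP5SA (1 of 8, against 29.7%). The full order GFP, YAP5SA, YAP6SA without overlap was met by Nr4a1 and Sik1 (2 of 8) and by 0.458% of all genes.

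The contrast between batches was not used to choose the genes. None of the 8 passed an adjusted p of 0.05 by edgeR's quasi-likelihood test between batch 2 and batch 1, where 0.203% of all genes did. At an unadjusted p under 0.05 there were 2 (Nr4a3 and Sik1), beside 813 genes higher and 804 lower of all 13323. DESeq2 and limma-voom also called 0 of the 8. Nr4a3 was lower in batch 2 by 2.09 ± 0.62 on the log2 scale (log2 fold change -2.09, edgeR adjusted p = 0.219). It was called when either GFP library was left out. Sik1 was lower by 0.39 ± 0.13 (log2 fold change -0.39, edgeR adjusted p = 0.268). In each of the 3 groups the summed fibroblast and endothelial markers were higher in batch 1 and the summed macrophage markers higher in batch 2, and their part in these values was not tested.

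The genes with a profile most like that of Nr4a1 over the 6 libraries were, by root mean square difference of batch-centred log2 CPM, Sik1 (0.135), Srf (0.255), Gm49338 (0.278), Gm16008 (0.311) and Hnmt (0.316), against a median of 0.851 over all genes. For Sik1 they were Nr4a1 (0.135), Gm49338 (0.171), Srf (0.172), Bex4 (0.236) and AI839979 (0.256), against 0.749. Srf, the gene of serum response factor, appears on both lists. It was at 63.3 and 59.4 CPM with GFP, 159 and 146 CPM with YAP6SA and 143 and 93.3 CPM with YAP5SA. Its libraries followed the order of Nr4a1 and Sik1 without overlap. Gm49338, Gm16008, Hnmt and Bex4 stayed under 5 CPM in these libraries, so their profiles rest on few reads. Nr4a1 and Sik1 were chosen for the same pattern, and their nearness is a consequence of that choice.

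**Figure D4:**
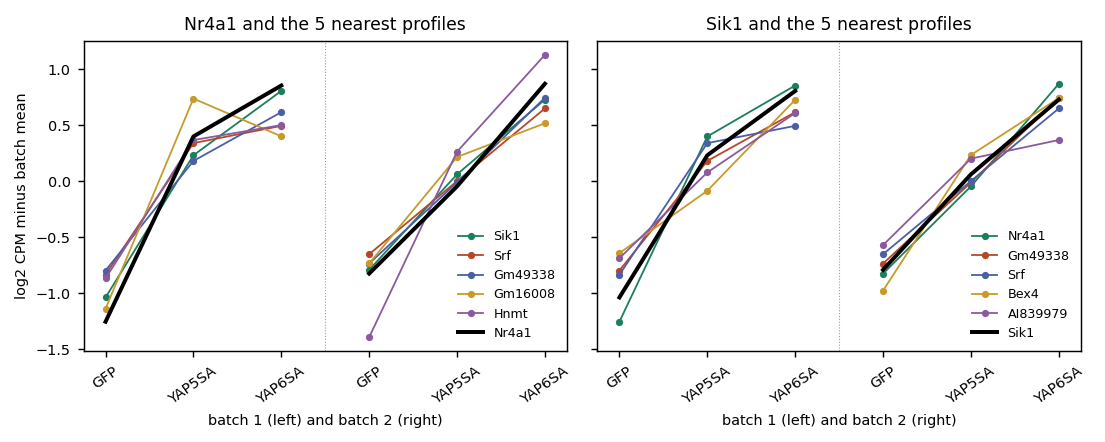
Batch-centred log2 CPM over the 6 libraries for Nr4a1, Sik1 and the genes nearest to them in profile. The lines rise from GFP to YAP5SA to YAP6SA, except that Gm16008 peaks with YAP5SA in batch 1, and Srf lies closest to the pair among genes above 10 CPM.

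The wider pathway was read from 6 lists of 93 other genes, of which 81 were tested. Over all 13323 tested genes, an unadjusted edgeR p below 0.05 was reached by 514 upward and 276 downward for YAP6SA against GFP. For YAP5SA against GFP these counts were 2591 and 2261, and for YAP6SA against YAP5SA they were 1929 and 2180. Among the 13 tested components of CREB signaling, which include Creb1, the CRTC coactivators and protein kinase A subunits, 0 passed an edgeR adjusted p of 0.05 in any comparison between groups. Their median log2 fold change was -0.04 for YAP6SA and -0.13 for YAP5SA against GFP, beside 0.00 over all genes, and those with an unadjusted p below 0.05 numbered 0 for YAP6SA and 3 for YAP5SA against GFP and 1 for YAP6SA against YAP5SA. DESeq2 and limma-voom called 0 of them as well. The 3 for YAP5SA against GFP were Crtc1, Crtc2 and Prkaca, with log2 fold changes of -0.40, -0.40 and -0.43. Without YAP5SA replicate 1 they were called lower with YAP5SA than with GFP. Crtc1 and Prkaca were then also called higher with YAP6SA than with YAP5SA. More genes were called in that fit over all pathway lists too, and the share of all tested genes called there is not given.

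Of 22 tested CREB target genes other than the members, edgeR called 1 with YAP6SA against GFP (Irs2, higher), with 0.0450% of all genes called. At an unadjusted p under 0.05 there were 8, beside 514 genes higher and 276 lower of all 13323. DESeq2 called 2, adding Atf3, the gene of a stress-induced transcription factor, and the likelihood ratio test called 3. With YAP5SA 9 rose (9 of 22, with 12.8% of all genes called higher) and 1 fell (with 9.18% called lower). These calls became fewer without GFP replicate 2 and more without YAP5SA replicate 1, as did those over all pathway lists. The median log2 fold changes were 0.36 with YAP6SA and 0.82 with YAP5SA. Irs2, an adaptor of insulin signaling, was at 20.5 and 13.0 CPM with GFP, 78.8 and 31.8 CPM with YAP6SA and 61.7 and 42.7 CPM with YAP5SA. It rose with YAP6SA (log2 fold change 1.64 ± 0.22, edgeR adjusted p = 0.0424) and with YAP5SA (1.66 ± 0.22, edgeR adjusted p = 0.00105). The YAP6SA call of Irs2 was lost without GFP replicate 1, GFP replicate 2 or YAP6SA replicate 1. When YAP6SA and GFP were fitted alone, and also with no filter on low counts, 6 of the CREB targets passed, Irs2 and Atf3 among them, with 2.07% of all genes called in the former fit. Inhba, a subunit of activin, was at 4.10 and 0.784 CPM with GFP, 2.44 and 1.39 CPM with YAP6SA and 28.4 and 91.5 CPM with YAP5SA. Inhba was kept for testing through the YAP5SA libraries alone. Its calls here, and its place among the 9 that rose, are therefore a description only. It rose with YAP5SA by 4.56 ± 0.72 (log2, edgeR adjusted p = 0.00267). That value lies between unlike batches, 6.93-fold in batch 1 and 117-fold in batch 2, where GFP had 12 counts. Maff, a small MAF transcription factor, rose by 3.37 ± 0.45 (log2, edgeR adjusted p = 0.00115). Inhba and Maff were lower with YAP6SA than with YAP5SA, by -4.94 and -3.01 on the log2 scale (edgeR adjusted p = 0.00253 and 0.00246).

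Between the YAP forms edgeR called 3 of the 22 tested CREB targets higher with YAP6SA and 4 lower, and 15 did not pass. Of all 13323 genes, 757 were called higher and 1199 lower. The log2 difference was above 0 for 8 of the 22. The order of Nr4a1 and Sik1 was therefore not that of most targets on the list. The 3 called higher were named after their values were seen. Ppargc1a, the gene of the mitochondrial coactivator PGC-1α, differed by 1.55 ± 0.36, Rgs2, a brake on G protein signaling, by 1.40 ± 0.19 and the MAP kinase phosphatase gene Dusp1 by 0.75 ± 0.16 (log2, edgeR adjusted p = 0.0187, 0.00199 and 0.0150). The Ppargc1a call was not made by DESeq2, and it and the Dusp1 call were lost without YAP6SA replicate 1. The Dusp1 call was also lost without YAP6SA replicate 2, and the Dusp1 and Rgs2 calls were lost with no batch term. Ppargc1a was at 116 and 177 CPM with GFP, 357 and 137 CPM with YAP6SA and 95.1 and 66.7 CPM with YAP5SA, so that YAP6SA lay above GFP in batch 1 and below it in batch 2. Unlike Nr4a1 and Sik1, none of these 3 was called higher with YAP5SA than with GFP, and Rgs2 fell there (log2 fold change -0.87, edgeR adjusted p = 0.0118).

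**Figure D5:**
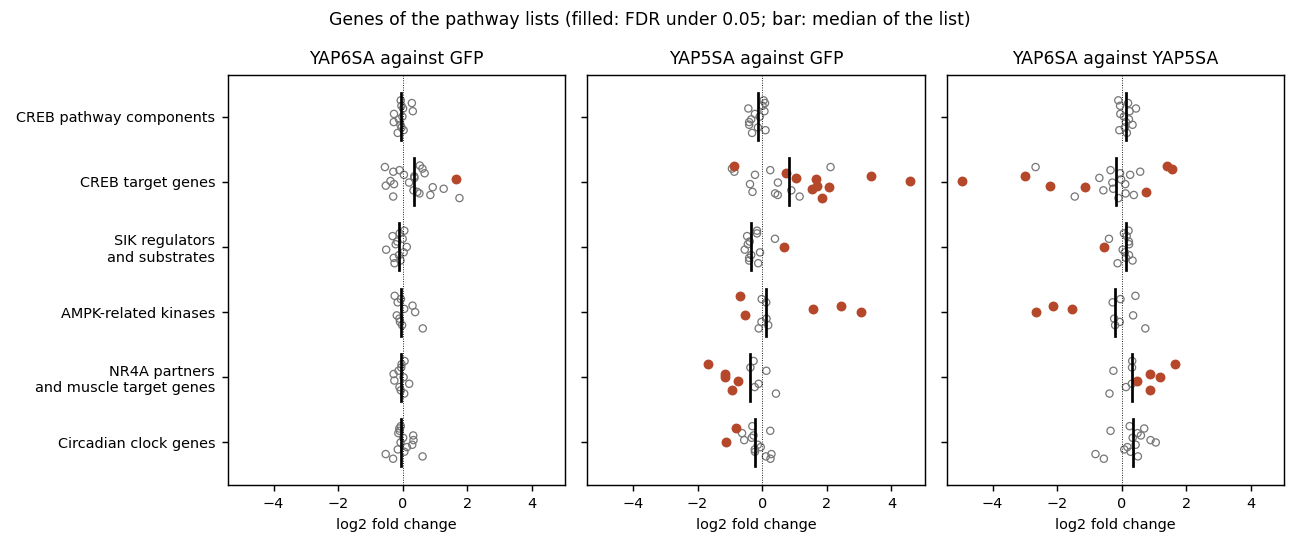
Log2 fold changes of the tested genes of the 6 pathway lists in the 3 comparisons, with called genes (edgeR adjusted p under 0.05) marked. CREB components lie near 0 in all 3, whereas CREB targets spread widely with YAP5SA and 1 of 22, Irs2, is called with YAP6SA against GFP.

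Among 13 tested regulators and substrates of the SIK kinases, 1 was called with YAP5SA (higher, where 12.8% of all genes were). At an unadjusted p under 0.05 there were 5, beside 2591 genes higher and 2261 lower of all 13323. With YAP6SA against GFP edgeR, DESeq2 and limma-voom each called 0 and 1 had an unadjusted p under 0.05. Hdac7, a class IIa histone deacetylase, rose with YAP5SA by 0.67 ± 0.16 (log2, edgeR adjusted p = 0.0156) and was lower with YAP6SA than with YAP5SA (-0.55 ± 0.16, edgeR adjusted p = 0.0462). The YAP5SA call was lost without GFP replicate 1, GFP replicate 2 or YAP5SA replicate 2, and the call between the YAP forms in every fit that left out 1 library except that without YAP5SA replicate 1, with no batch term and in the 4-library fit. DESeq2 also called Hdac5, lower with YAP5SA. Without YAP5SA replicate 1 edgeR called more genes of this list lower, as it did over all pathway lists. The share of all tested genes called in that fit is not given. The list's median was -0.34 with YAP5SA and -0.12 with YAP6SA against GFP.

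Of 11 partners and muscle targets of the NR4A receptors, 5 fell with YAP5SA (5 of 11, with 9.18% of all genes called lower), a count that was 1 without GFP replicate 2 and 3 with no batch term. With YAP6SA against GFP edgeR, DESeq2 and limma-voom each called 0 and 0 had an unadjusted p under 0.05. Rxrg, the gene of a retinoid X receptor that pairs with Nr4a1 and Nr4a2, fell by 1.67 ± 0.37 on the log2 scale (log2 fold change -1.67, edgeR adjusted p = 0.0120), a call that DESeq2 did not make. The muscle glycogen phosphorylase gene Pygm fell by 1.16 ± 0.21 (edgeR adjusted p = 0.00548). All 5 were called higher with YAP6SA than with YAP5SA (with 5.68% of all genes called higher), among them Phkg1, a phosphorylase kinase subunit, by 1.19 ± 0.31 (log2, edgeR adjusted p = 0.0302). Of these 5 calls, 0 were left without YAP6SA replicate 2, 1 without YAP5SA replicate 2, 1 with no batch term, 3 without YAP6SA replicate 1 and 3 by DESeq2. The summed CM markers were lowest in the YAP5SA libraries, though not each marker alone, and their part in these falls was not tested. The median of the list was -0.37 with YAP5SA and -0.05 with YAP6SA against GFP.

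Among 15 clock genes beside Per1, edgeR called 2 lower with YAP5SA (2 of 15, near the 9.18% of all genes called lower), Dbp and Per3. Both calls were lost without GFP replicate 2 and without YAP5SA replicate 2. More clock genes were called without YAP5SA replicate 1, as were more genes over all pathway lists. With YAP6SA against GFP, edgeR, DESeq2 and limma-voom each called 0, and 1 had an unadjusted p under 0.05, while 1 (Bhlhe40) was called higher when YAP5SA replicate 1 or YAP5SA replicate 2 was left out. Dbp fell by 1.12 ± 0.33 and Per3 by 0.80 ± 0.24 on the log2 scale (edgeR adjusted p = 0.0372 and 0.0418). Per2, the closest relative of Per1, had a log2 fold change of 0.25 with YAP5SA that did not pass (edgeR adjusted p = 0.333). The time of day at which hearts were taken is not given in the sources used here.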

How the data were processed

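The authors deposited 1 table of raw counts, made with STAR on mm10 (GRCm38) by the submitters' processing notes, with no normalization, for 6 libraries, and the labels gave group, replicate and batch. No column of the authors' comparisons was used. The table held 4 rows that name no gene (unmapped, multimapping, no feature and ambiguous reads), which were set aside and held between 21.98% and 23.45% of all reads. Library totals over the 54532 genes set the precision.

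Genes were kept where the median log2 CPM exceeded 1 in at least 1 group. edgeR 4.0.16 in R 4.3.3 (TMM scaling, glmQLFit and glmQLFTest, group plus batch over all 6 libraries, Benjamini-Hochberg adjustment over 13323 genes, threshold 0.05) gave log2 fold changes, and DESeq2 1.42.0 and limma 3.58.1 were alternatives. The fit was tested on simulated data with 200 changed genes. The 8 genes (the members) and the pathway and marker lists were chosen with earlier results of these data known. Named beside the members were the 2 largest called changes per list and comparison and the 5 nearest profiles. Ppargc1a, Rgs2, Dusp1, Per2, Atf3, Crtc1, Crtc2, Prkaca, Hdac5 and Bhlhe40 lie outside this rule and were named after their values were seen.

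Batch numbers equal replicate numbers in the labels, which pairs the samples. Deviations of same-batch libraries from group means correlated across genes at 0.368 (GFP and YAP6SA), 0.0985 (GFP and YAP5SA) and 0.175 (YAP6SA and YAP5SA). Replicates were distinct libraries, with a chi-square per degree of freedom of 25.3 to 39.6. Promoter windows were searched on both strands. One further marker list is not reported here.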

Additional observations from a re-analysis of the deposited data

How the results depend on the processing

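The replicate block decided several counts. Without it 0 members were called in YAP6SA against GFP and 0 in YAP6SA against YAP5SA (2 in each with it), and pathway genes called went from 1 to 0 and from 16 to 9. In YAP6SA against GFP, 4 members were called with no filter on low counts, 1 at an adjusted p of 0.01 and 2 to 3 with 1 library left out. Pathway genes there numbered 6 with no filter, 3 by edgeR's likelihood ratio test, 2 by DESeq2, 7 in the 4-library fit with the replicate block, 0 at 0.01 and 0 to 6 with 1 library left out. The 0 came without GFP replicate 2 or YAP6SA replicate 1, and the 6 without either YAP5SA library. In YAP5SA against GFP, members called fell from 4 to 2 at 0.01 and ran from 3 to 5 with 1 library left out. Pathway genes fell from 23 to 11 at 0.01 and ran from 10 (without GFP replicate 2) to 41 (without YAP5SA replicate 1). In YAP6SA against YAP5SA, members called were 1 with DESeq2 size factors (Sik1), 0 at 0.01 and 0 to 3 with 1 library left out. Pathway genes were 6 at 0.01 and ran from 7 (without YAP6SA replicate 2) to 36 (without YAP5SA replicate 1). Between batches 1 member, Nr4a3, was called with no filter and 0 to 1 with 1 library left out. The causes were not tested. With 1 library left out, a lone library was assumed to vary like the other groups. The log2 fold changes of Nr4a1, Nr4a3, Sik1 and Sik3 kept their sign in every setting run, whereas those of Sik2 and Crem changed sign in the 3 comparisons when single libraries were left out, as did Per1 in YAP6SA against GFP and against YAP5SA and Nr4a2 in YAP6SA against YAP5SA. With 2 libraries per group, no group has a spread of its own that is well known.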

Other observations

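The SIK kinases belong to a wider family of AMPK-related kinases, 11 of whose other members were tested. With YAP5SA 3 rose (3 of 11, with 12.8% of all genes called higher), 2 fell (2 of 11, with 9.18% called lower) and 6 did not pass, and with YAP6SA against GFP 0 were called by edgeR, DESeq2 or limma-voom and 0 had an unadjusted p under 0.05. Melk, a kinase of dividing cells, was at 3.05 and 0.457 CPM with GFP, 2.59 and 1.70 CPM with YAP6SA and 11.5 and 13.9 CPM with YAP5SA. It rose with YAP5SA by 3.05 ± 0.59 (log2, edgeR adjusted p = 0.00684). Nuak2, a kinase that acts on myosin phosphatase, was at 14.0 and 7.44 CPM with GFP, 15.4 and 10.9 CPM with YAP6SA and 47.4 and 65.1 CPM with YAP5SA. It rose with YAP5SA by 2.44 ± 0.31 and its close relative Nuak1 by 1.57 ± 0.19 (log2, edgeR adjusted p = 9.1e-04 and 8.4e-04). All 3 were lower with YAP6SA than with YAP5SA, by -2.67, -2.14 and -1.53 on the log2 scale, the reverse of Sik1. Snrk and Mark4 fell with YAP5SA by 0.67 and 0.54. Both calls were lost without GFP replicate 2, and that of Mark4 also without GFP replicate 1 or YAP5SA replicate 2, without the replicate block and in the 4-library fit. The Melk call between the YAP forms was lost without YAP6SA replicate 2 or YAP5SA replicate 2. Nuak1, Snrk and Mark4 were named after their values were seen.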
